A study of Homo sapiens with 50 samples.

Results

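Of the 6481 genes for which the authors deposited a gene interval and a pause site in DLD-1 cells, 37 encode proteins of oxidative phosphorylation. They were chosen by gene name alone: protein-coding nuclear genes whose RefSeq symbol begins with NDUFA, NDUFB, NDUFC, NDUFS, NDUFV, UQCR, ATP5 or COX4 to COX8, or is SDHA, SDHB, SDHC, SDHD or CYC1. RefSeq holds 97 such genes. The prefix NDUFA also takes in 8 NDUFAF genes, which encode assembly factors of complex I and no subunit, and 2 of these were among the 37. It also takes in ATP5IF1, an inhibitor of the ATP synthase, and 2 readthrough genes, NDUFC2-KCTD14 and ATP5MF-PTCD1, none of which was listed. Besides the 2 NDUFAF genes, the 37 were 15 genes of complex I, 2 of complex II, 5 of complex III, 4 of complex IV and 9 of complex V.

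Oxidative phosphorylation takes place in the inner mitochondrial membrane. Complexes I and II pass electrons from NADH and succinate to ubiquinone, complex III passes them to cytochrome c and complex IV to oxygen. Complexes I, III and IV pump protons, and complex V, the ATP synthase, uses the gradient to make ATP. Mitochondrial DNA encodes a few core subunits, and the genes described here are those in the nucleus. They are widely and highly transcribed, and the transcription factors NRF1, GABP (an ETS factor) and YY1 are known to bind many of their promoters. RNA polymerase II (Pol II) commonly halts shortly after it starts a gene, and release from this pause is a step at which transcription is controlled.

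The series comprised 50 chromatin immunoprecipitation sequencing libraries from DLD-1, a human colorectal adenocarcinoma line. All cells, controls included, expressed OsTIR1, a plant protein through which auxin triggers the destruction of proteins with an auxin-inducible degron (AID), and the samples held spiked-in mouse embryonic fibroblasts. The lines were parental (OsTIR1 alone, 3 libraries), SPT6-AID (30), PAF1-AID (9), SPT6-AID/PAF1-AID (4) and SPT6-AID/NELF-C-AID (4), treated with vehicle for 2 h or with 500 µM auxin for 0, 2 or 6 h. The study addressed the role of SPT6, an elongation factor, in pause release and its link to the PAF1 complex. The files used here are 2 lists without a value per library, so treatments and antibodies are not compared, and the depth behind each pause site is unknown. With 1 site per gene and no replicate, no test was made. The intervals given below are 95% intervals over genes, which are not replicates, and they cover counting only. Among cell type markers, 6 of 10 genes of colon epithelium were listed (60%, 95% Wilson interval 31.3 to 83.2%), against 29.1% of all protein-coding genes. These were EPCAM, CDH1, KRT18, KRT19, KRT20 and CDX2, whereas KRT8, CDX1, VIL1 and LGALS4 were not among the named entries. Of the fibroblast and blood markers 0 of 10 each were listed (95% Wilson upper bound 27.8% each).

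The sequences of the genes around their listed starts show where the reference points of the measurements lie. The pause distance is the number of bp between a gene's listed 5' end and its pause site, counted in the direction of transcription. In 2 genes with very short distances the stretch from 10 bases before the listed start to the pause site could be read from RefSeq promoter windows (assembly GRCh38.p14, which numbers its chromosomes as hg38 does). The capitals mark the first listed base and the pause base.
UQCRC2 (chr16:21953376-21953393, plus strand): gctttcctttAatccggC
COX5A (chr15:74938033-74938054, minus strand): gcttctctctGtcctcagcccG
UQCRC2 encodes a core protein of complex III and COX5A a structural subunit of complex IV, with pause sites 7 and 11 bp from the listed start.

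At 4 more members the 10 bases on either side of the pause site could be read, with the pause base in capitals.
ATP5MG (chr11:118401634-118401654, plus strand): gttcggggcgAcggactctcc
NDUFA12 (chr12:95003649-95003669, minus strand): gcaggtcctgAaacgcgggct
NDUFS7 (chr19:1383929-1383949, plus strand): ggcggtgctgTcaggtgagcg
UQCRFS1 (chr19:29213096-29213116, minus strand): gttgtcggtaGcatcccgctc
With UQCRC2, whose pause base is C, the 5 members that could be read with both flanks had A at 2 sites and C, G and T at 1 each. Among all 1437 entries that could be read, G stood at 47.5% of the pause sites, A at 22.7%, C at 20.8% and T at 8.98%. The windows were rich in G and C, with a median GC content of 66.7% in the 5 members and 71.4% over all entries read. Sites far from a RefSeq start fall outside the windows, so the sites read are those near one. Exon annotation was not used here, so whether a site lies in an untranslated or a coding stretch is not stated.

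The start sites themselves could be read in 29 members. The base before the listed start and the first base were a pyrimidine followed by a purine, the usual form of a Pol II start site, in 24 of 29 (82.8%), against 86.6% of the 4411 entries read in all. The first base was A in 16 members, G in 11, and C and T in 1 each. Over all entries it was A in 68.3% and G in 27.6%. COX5A, printed above, starts at a G after T.

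Pause distances of the 37 genes ranged from 6 bp for NDUFS6, an accessory subunit of complex I, to 263 bp for NDUFB2, a subunit of its membrane arm. The median was 45 bp (95% order-statistic interval 39 to 68), with quartiles of 37 and 87 bp and a mean of 70.3 ± 60.4 bp (SD over genes). Over all 6481 entries the median was 52 bp (51 to 53), with quartiles of 38 and 84 bp and a mean of 71.1 ± 56.6 bp. The members' interval contains the median of all entries. In the 14 members whose listed end lies within 10 bp of the RefSeq start the median was 66 bp (39 to 172), above the 51 bp of the 2325 such entries, so the direction of this small difference turns with the genes kept. The curves of cumulative share for the 37 genes and for the other 6444 entries ran close to each other over the whole range.

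**Figure D1:**
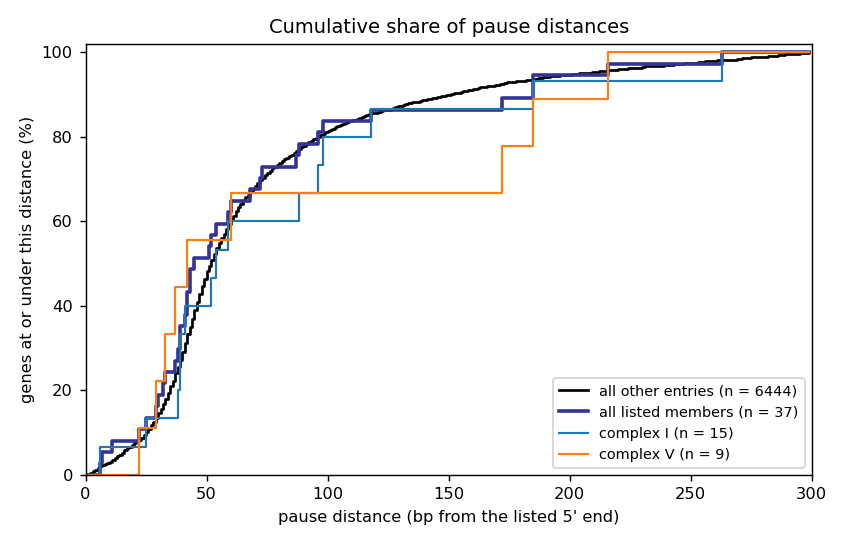
Cumulative share of genes (y axis, %) against pause distance (x axis, bp from the listed 5' end) for the 37 members, for complexes I (15 genes) and V (9 genes) and for the other 6444 entries. The curve of all members follows that of the other entries, and the curve of complex V is flat between 60 and 172 bp.

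By class of distance the members were spread much like the whole list. Of the 37 genes, 21 (56.8%, 95% Wilson interval 40.9 to 71.3%) had a pause site at 20 to 60 bp, against 53.4% of all entries. Sites under 20 bp were found in 3 members (8.11%, 2.8 to 21.3%), against 7.08% of all entries. Sites over 100 bp were found in 6 (16.2%, 7.65 to 31.1%), against 18.7%. Of these, 2 lay at 200 bp or more (5.41%, 1.5 to 17.7%), against 5.32%. In each class the background lies inside the members' interval, so no difference from the list was detectable with 37 genes.

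**Figure D2:**
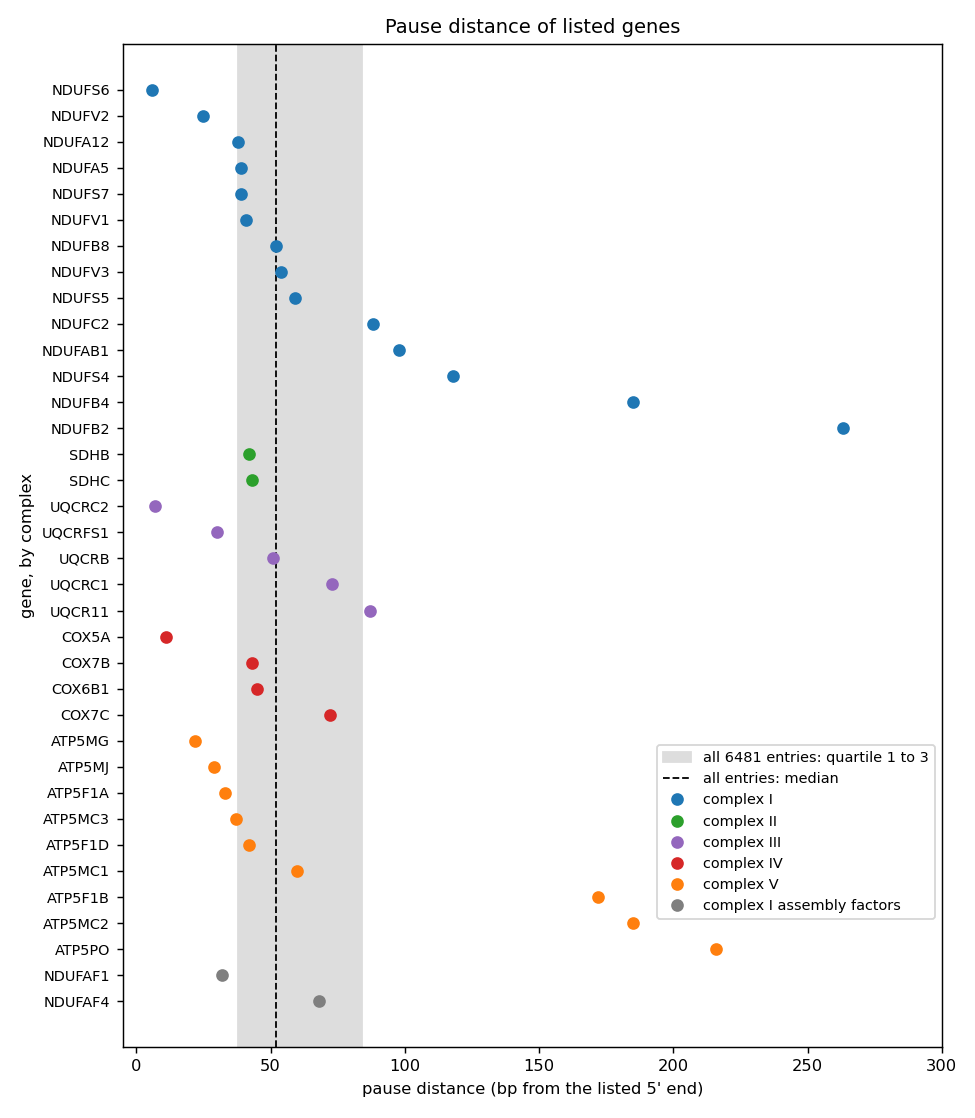
Pause distance (x axis, bp from the listed 5' end) of 36 of the 37 genes (y axis), coloured by complex, 1 point per gene. The grey band is quartile 1 to 3 of all 6481 entries (38 to 84 bp) and the dashed line their median (52 bp); 6 genes of complexes I and V lie beyond 100 bp.

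Complex I, the entry point of electrons from NADH, had 15 of 38 genes in the list, against 29.1% of all protein-coding genes. The counts listed for each complex rest on few genes and were not compared with each other. Complex I had a median distance of 54 bp (39 to 98) and a range of 6 to 263 bp. From the outermost RefSeq start its median was 88 bp, against 84 bp over all named entries. The gene for the subunit that binds NADH, NDUFV1, had its pause site at 41 bp. Its iron-sulfur partner NDUFV2 stood at 25 bp and the accessory subunit NDUFV3, the middle gene of the complex, at 54 bp (ENSG00000160194.18, chromosome 21, plus strand, 5' end 42893311, site 42893365). All 3 NDUFV genes thus lay at 60 bp or less, NDUFV2 below the lower quartile of all entries and NDUFV3 next to their median.

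The NDUFS genes described here differed more. NDUFS7, which carries the last iron-sulfur cluster before ubiquinone, stood at 39 bp (ENSG00000115286.21, chromosome 19, plus strand, 5' end 1383900, site 1383939). The accessory subunits NDUFS6 (ENSG00000145494.12, chromosome 5, plus strand, 5' end 1801463, site 1801469), NDUFS5 and NDUFS4 (ENSG00000164258.12, chromosome 5, plus strand, 5' end 53560639, site 53560757) stood at 6, 59 and 118 bp. Loss of NDUFS4 or NDUFS6 is a known cause of complex I deficiency, and their genes were at the low and the high side of the range.

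Of the NDUFA genes, NDUFA12 (ENSG00000184752.14, chromosome 12, minus strand, 5' end 95003697, site 95003659) stood at 38 bp and NDUFA5 (ENSG00000128609.16, chromosome 7, minus strand, 5' end 123557804, site 123557765) at 39 bp. NDUFAB1, the mitochondrial acyl carrier protein that serves both in complex I and in fatty acid synthesis, stood at 98 bp. Among genes for the membrane arm, NDUFB8 had its site at 52 bp (ENSG00000166136.16, chromosome 10, minus strand, 5' end 100529871, site 100529819), the distance closest to the median of all entries. NDUFC2 stood at 88 bp, NDUFB4 at 185 bp (ENSG00000065518.8, chromosome 3, plus strand, 5' end 120596338, site 120596523) and NDUFB2 at 263 bp (ENSG00000090266.13, chromosome 7, plus strand, 5' end 140696708, site 140696971). The 4 genes of the membrane arm with the prefixes NDUFB and NDUFC were thus at or above the median, and NDUFB2 exceeded 98.2% of the list, counting ties by their mean rank. NDUFS6 was at the other end, at a percentile of 1.76.

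The complex I assembly factors NDUFAF1 and NDUFAF4 act while the complex is being built and are absent from the finished enzyme. Their sites lay at 32 bp (ENSG00000137806.10, chromosome 15, minus strand, 5' end 41402460, site 41402428) and 68 bp (ENSG00000123545.6, chromosome 6, minus strand, 5' end 96897863, site 96897795). Both lay inside the range of the subunit genes. Without them the median of the remaining 35 genes was 45 bp (39 to 72).

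Complex II, succinate dehydrogenase, is the only enzyme shared by the respiratory chain and the citric acid cycle. SDHB, its iron-sulfur subunit, stood at 42 bp (ENSG00000117118.10, chromosome 1, minus strand, 5' end 17054029, site 17053987). SDHC, a membrane anchor, stood at 43 bp (ENSG00000143252.16, chromosome 1, plus strand, 5' end 161314434, site 161314477). The 2 sites were 1 bp apart in distance from the listed ends, but lay at 45 bp (SDHB) and 96 bp (SDHC) from the outermost RefSeq starts. SDHA, the flavoprotein, and SDHD, the other anchor, were not among the named entries.

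Complex III, which passes electrons to cytochrome c, had 5 of 10 genes in the list, against 29.1% of all protein-coding genes. The median was 51 bp, with a range of 7 to 87 bp. The core proteins UQCRC2 (ENSG00000140740.11, chromosome 16, plus strand, 5' end 21953386, site 21953393) and UQCRC1 (ENSG00000010256.11, chromosome 3, minus strand, 5' end 48609646, site 48609573) stood at 7 and 73 bp. UQCRFS1, the Rieske iron-sulfur protein that takes the electron from ubiquinol, stood at 30 bp (ENSG00000169021.6, chromosome 19, minus strand, 5' end 29213136, site 29213106). The small subunits UQCRB (ENSG00000156467.10, chromosome 8, minus strand, 5' end 96235547, site 96235496) and UQCR11 (ENSG00000127540.12, chromosome 19, minus strand, 5' end 1605434, site 1605347) stood at 51 and 87 bp. The 2 core proteins, which pair in the enzyme, had the lowest and the second highest distance of the complex. None of the 5 exceeded 100 bp, against 18.7% of all entries.

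Complex IV, cytochrome c oxidase, had 4 of 17 genes in the list, against 29.1% of all protein-coding genes, with a median of 44 bp. Another 6 of the 17 were shorter than the shortest entry. COX5A (ENSG00000178741.12, chromosome 15, minus strand, 5' end 74938044, site 74938033) stood at 11 bp, COX7B at 43 bp (ENSG00000131174.7, chromosome X, plus strand, 5' end 77899480, site 77899523), COX6B1 at 45 bp (ENSG00000126267.11, chromosome 19, plus strand, 5' end 35648352, site 35648397) and COX7C at 72 bp (ENSG00000127184.13, chromosome 5, plus strand, 5' end 86617928, site 86618000). These are nuclear subunits that surround the catalytic core encoded by mitochondrial DNA. COXFA4, whose older symbol is NDUFA4 and which is now counted with complex IV, was outside the naming rule by its current symbol, and its site lay at 55 bp (ENSG00000189043.10, chromosome 7, minus strand, 5' end 10940130, site 10940075). With it the median of complex IV was 45 bp. Another 2 entries were left unnamed because their 3' ends differ from RefSeq's, and their starts match COX7A2 (32 bp) and COX7A2L (26 bp), the latter a factor that joins complexes III and IV into supercomplexes. One more such entry matches the start of the complex I gene NDUFA10 (59 bp). An unnamed entry also overlaps the assembly factor gene NDUFAF6, but it was not matched to a RefSeq start.

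Some subunits of complex IV have another form made in 1 or a few tissues. COX4I2, COX6A2, COX6B2, COX7A1, COX7B2 and COX8C, such forms for lung, heart and skeletal muscle or testis, were 0 of 6 in the list, against 29.1% of all protein-coding genes. Of these, COX6A2 (630 bp in RefSeq), COX7A1 (1526 bp) and COX8C (1175 bp) are shorter than the 3005 bp of the shortest entry, and COX6B2 lies 188 bp from GARIN5B. COX4I2 (7095 bp) and COX7B2 (174419 bp) are long enough and have their nearest coding neighbours at 19445 and 9654 bp. Of the widely made counterparts, COX6B1 and COX7B were listed, COX7A2 matched an unnamed entry, and COX4I1, COX6A1 and COX8A were not listed. RefSeq gives COX6A1 2618 bp and COX8A 1924 bp, and COX4I1 lies 150 bp from EMC8. A missing entry does not by itself show whether a gene is silent in these cells, and why these genes are missing was not tested.

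Complex V had 9 of 20 genes in the list, against 29.1% of all protein-coding genes. Its median was 42 bp (29 to 185), with a range of 22 to 216 bp. Its distances fell into 6 genes at 22 to 60 bp and 3 genes at 172 to 216 bp, with none at 61 to 100 bp. Over all entries 20.9% lay at 61 to 100 bp and 18.7% over 100 bp. From the outermost RefSeq start the median of the complex was 90 bp, against 84 bp over all named entries, so its place below the median of the list depends on the origin used. ATP5MG, a membrane subunit, had the shortest distance, 22 bp (ENSG00000167283.9, chromosome 11, plus strand, 5' end 118401622, site 118401644). ATP5MJ, a small membrane subunit, followed at 29 bp. In the catalytic head, ATP5F1A (the alpha subunit) stood at 33 bp and ATP5F1D (the delta subunit; ENSG00000099624.8, chromosome 19, plus strand, 5' end 1241768, site 1241810) at 42 bp, whereas ATP5F1B (the catalytic beta subunit) stood at 172 bp. The alpha and beta subunits alternate in equal number in the enzyme, yet the distance of one gene lay below the lower quartile of all entries and that of the other beyond 92.5% of them, counting ties by their mean rank. Their origins differ: the listed end of ATP5F1A lay 5942 bp inside its outermost RefSeq start, and that of ATP5F1B on the same base as RefSeq's. ATP5PO, which fixes the stalk to the head, had the largest distance of the complex, 216 bp (ENSG00000241837.7, chromosome 21, minus strand, 5' end 33915792, site 33915576).

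The genes ATP5MC1, ATP5MC2 and ATP5MC3 encode precursors of the same mature protein, subunit c of the rotor ring, and differ in their targeting peptides. All were listed. ATP5MC1 had its site at 60 bp (ENSG00000159199.14, chromosome 17, plus strand, 5' end 48892817, site 48892877), ATP5MC2 at 185 bp (ENSG00000135390.21, chromosome 12, minus strand, 5' end 53676078, site 53675893) and ATP5MC3 at 37 bp. The distances of genes with the same product thus spanned most of the range of complex V. Their promoters differed too, as printed below for ATP5MC1 and ATP5MC2; the table used holds no window for ATP5MC3.

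Pause distance depends on the listed 5' end, which often lay downstream of the outermost RefSeq start. Both were the same base in 8 of the 37 members (21.6%) and within 50 bp in 29 (78.4%), against 25.8% and 64% of the 5822 named entries. A listed end over 10 bp inside the RefSeq gene was found in 22 members (59.5%), against 53.2%. The 3 members with sites under 20 bp were among these: the listed end lay 56 bp downstream of the RefSeq start in NDUFS6, 25 bp in UQCRC2 and 29 bp in COX5A. From the RefSeq start their sites lay at 62, 32 and 40 bp, and no member was under 20 bp by that measure. The 5 members with the largest distances showed no such shift except ATP5MC2, whose outermost RefSeq start lies 5345 bp upstream, and ATP5PO, with 12 bp. NDUFB2 and ATP5F1B had the same base in both, and NDUFB4 differed by 2 bp. NDUFS4, at 118 bp, had the same base too.

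**Figure D3:**
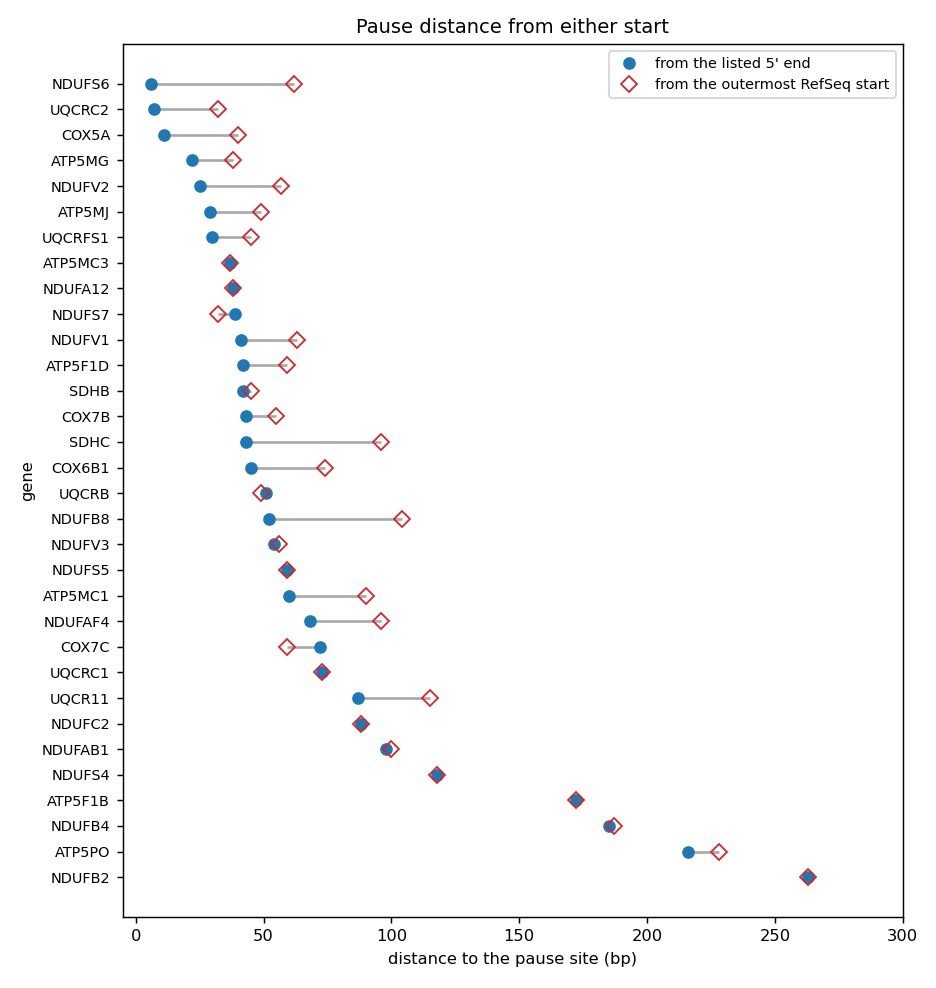
Distance to the pause site (x axis, bp) from the listed 5' end (circles) and from the outermost RefSeq start (diamonds) for the 32 members whose starts lie within 100 bp of each other (y axis). The 3 genes under 20 bp by the listed end lie at 32 to 62 bp by the RefSeq start, and the genes over 150 bp hardly move.

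The members were short genes. Their median listed length was 10909 bp (95% interval 8266 to 14586), against 35481 bp over all entries (34009 to 37146), and the intervals did not overlap. The shortest member was COX7C with 3035 bp, close to the shortest entry of the list at 3005 bp. The longest was NDUFS4 with 122700 bp, followed by SDHC with 48773 bp and SDHB with 35308 bp. Complex V had a median of 8226 bp, complex IV 9164 bp, complex III 10645 bp and complex I 12029 bp. Mitochondrial ribosomal protein genes in the list had a median of 13254 bp (31 genes) and cytosolic ribosomal protein genes 5177 bp (37 genes), so the 37 members lay between these groups of housekeeping genes.

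In the list stood 38.1% of the 97 genes (95% Wilson interval 29.1 to 48.1%), and 29.1% of all 20037 RefSeq protein-coding genes. Of the 60 genes that were not listed, 15 were shorter than the shortest entry. Another 37 were long enough but had a protein-coding neighbour that overlapped them or lay within 1000 bp, and 8 had neither property. The 8 were NDUFA6, NDUFA10, NDUFA11, NDUFS8, COX4I2, COX7A2, COX7A2L and COX7B2. NDUFA10, COX7A2 and COX7A2L are those whose starts match unnamed entries above, so 5 remain. NDUFAF6, which overlaps the other unnamed entry, is counted with the genes that have a close neighbour. Of the 5, NDUFA6, NDUFA11 and NDUFS8 have their nearest coding neighbour at 1241, 1081 and 1404 bp. Among genes of at least 3005 bp without such a neighbour, 28 of 36 members were listed (77.8%, 61.9 to 88.3%), against 42% of all such genes (41.1 to 43%), a group that takes in tissue-restricted genes. With a close neighbour 9 of 46 were listed (19.6%, 10.7 to 33.2%), against 16.8%.

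**Figure D4:**
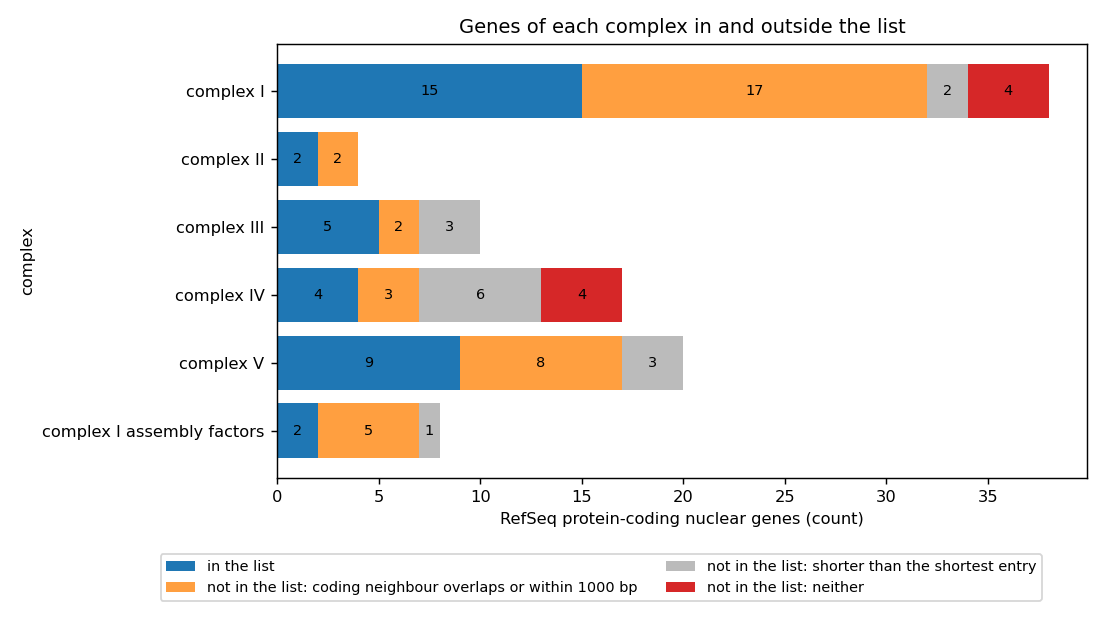
Number of RefSeq protein-coding nuclear genes (x axis) of each complex (y axis) that were in the list (blue) or not, split by a coding neighbour that overlaps or lies within 1000 bp (orange), a length under the shortest entry (grey), or neither (red). Complex I had 15 genes in the list and 17 outside it with a close neighbour; complex IV had 6 genes that were too short.

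Close neighbours were frequent among these genes. Of all 97, 54 (55.7%, 45.8 to 65.2%) had a protein-coding neighbour that overlapped them or lay within 1000 bp, against 38.9% of all protein-coding genes. Readthrough genes count here both as genes and as neighbours. NDUFC2 overlaps NDUFC2-KCTD14, ATP5MF overlaps ATP5MF-PTCD1, and both readthrough genes are themselves among the 54. Where the strands of both genes were known, 28 of 36 pairs were head to head, on opposite strands with the 5' ends nearer each other than the 3' ends (77.8%), against 39.4% of the 5454 such cases of other genes. Some examples, chosen after their values were seen, follow. ATP5PF, a stalk subunit of complex V, overlaps GABPA, which encodes the DNA-binding subunit of GABP. NDUFA7 lies 120 bp from RPS28, NDUFB10 82 bp from RPS2 and NDUFS1 164 bp from EEF1B2. None of these 4 genes was listed, whereas NDUFS6, which overlaps the mitochondrial ribosomal protein gene MRPL36, was.

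Of the 37 listed genes, 9 had such a neighbour (24.3%, 13.4 to 40.1%), close to the 20.4% of all 5822 named entries. The 9 include NDUFC2, whose neighbour is its own readthrough gene NDUFC2-KCTD14. Upstream of the listed start within 1000 bp, NDUFS6 has MRPL36 at 29 bp, NDUFAF4 has KLHL32 at 220 bp and NDUFV3 has WDR4 at 313 bp, each on the opposite strand. Long noncoding RNA genes cover the listed start of ATP5MC1, ATP5MG, NDUFB2 and UQCRB. NDUFV1 and UQCRFS1 have a divergent one upstream, NDUFV1-DT at 252 bp and UQCRFS1-DT at 117 bp. The libraries' chromatin signal carries no strand, and the sources used here do not say whether the sites were called with strand information.

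Promoter sequence was searched for 7 short motifs on both strands in RefSeq windows of 250 bases before to 50 after the gene start, which in some genes is not the outermost start used above. Windows were found for 29 of the 37 listed members and 49 of the 60 that were not listed. The core of the NRF1 site, GCGCATGC, was present in 7 of the 29 windows (24.1%, 95% Wilson interval 12.2 to 42.1%). It was present in 6.01% of the 4809 windows of named entries and in 4.35% of 15843 windows of protein-coding genes. The genes were ATP5MC2, NDUFA5, NDUFAF4, NDUFB4, NDUFS6, NDUFS7 and SDHB. Among members not in the list it was found in 9 of 49 (18.4%, 9.98 to 31.4%). Both intervals lie above the shares of the larger groups. In the 150 bases before the start the share of listed members was 10.3% (3.58 to 26.4%), an interval that contains the 4.41% of named entries. The matches of some members are shown here in stretches of 30 bases with the motif in capitals.
ATP5MC2 (chr12:53676105-53676134, minus strand): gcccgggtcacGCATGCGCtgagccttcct
NDUFA5 (chr7:123557958-123557987, minus strand): gtatgcccatcGCGCATGCgtcaatttttc
NDUFB4 (chr3:120596166-120596195, plus strand): aagagcacttcGCGCATGCgcatatcaccg
NDUFS6 (chr5:1801350-1801379, plus strand): ccagaagccgtGCGCATGCgttagcgctaa
SDHB (chr1:17054214-17054243, minus strand): aagccaaatggGCATGCGCcgctactgcgc
The motif is shown as GCGCATGC or as its reverse complement GCATGCGC, and in NDUFB4 both overlap. Counted from the listed start, the first base of the match lay at -22 in NDUFAF4, -45 in ATP5MC2, -66 in NDUFS7 and -102 in NDUFS6, and at -161, -172 and -203 in NDUFB4, NDUFA5 and SDHB.

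The core of the YY1 site, AAGATGGC, was present in 6 of the 29 windows (20.7%, 9.85 to 38.4%), against 5.86% of named entries and 4% of protein-coding genes. Among members not in the list it was found in 6 of 49 (12.2%, 5.73 to 24.2%), an interval that contains the share of named entries. In all 6 listed members it lay after the RefSeq start, as it did in 69.5% of the 282 named entries with a match. In the 5 listed members with a readable stretch it was on the gene's own strand. The motif contains the letters ATG, and whether a match covers a start codon was not examined.
SDHB (chr1:17054004-17054033, minus strand): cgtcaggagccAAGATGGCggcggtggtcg
NDUFB8 (chr10:100529836-100529865, minus strand): tgaagaaggtgAAGATGGCggtggccaggg
NDUFS4 (chr5:53560649-53560678, plus strand): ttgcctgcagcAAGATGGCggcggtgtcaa
UQCRC1 (chr3:48609605-48609634, minus strand): actgcagctggAAGATGGCggcgtccgtgg
NDUFS7 (chr19:1383913-1383942, plus strand): aggccgaggccAAGATGGCggtgctgtcag
From the listed start the matches began at 7 bp in SDHB, 17 bp in NDUFB8, 21 bp in NDUFS4, 23 bp in UQCRC1, 24 bp in NDUFS7 and 26 bp in ATP5PO. The match began between the listed start and the pause site in 6 of 6 members (100%, 61 to 100%) and in 159 of the 282 named entries (56.4%, 50.5 to 62%). It began 15 bp before the site in NDUFS7, 35 bp in SDHB and NDUFB8, 50 bp in UQCRC1, 97 bp in NDUFS4 and 190 bp in ATP5PO. The median pause distance of the 6 was 62.5 bp, against 41 bp for the 23 windows of members without a match. Over all named entries the medians were 51.5 and 52 bp, and the difference among members, which rests on few genes, was not tested.

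The ETS core CCGGAAG, which GABP binds, was present in 6 of the 29 windows (20.7%, 9.85 to 38.4%), about as often as in named entries (19.4%). Among members not listed it was present in 16 of 49 (32.7%, 21.2 to 46.6%), against 14.3% of protein-coding genes. COX5B, NDUFS3 and UQCRQ, which encode subunits of complexes IV, I and III, were among these. The GC box GGGCGG was present in 18 of the 29 windows (62.1%, 44 to 77.3%), against 78.1% of named entries. TATAAA was found in 2 of 29, COX7B and UQCRC2 (6.9%, against 4.12% of named entries), and CACGTG in 3 (10.3%, against 10.3%). CCAAT was found in 7 (24.1%, 12.2 to 42.1%), against 36.5%. A match is a run of letters, and binding was not measured here.

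**Figure D5:**
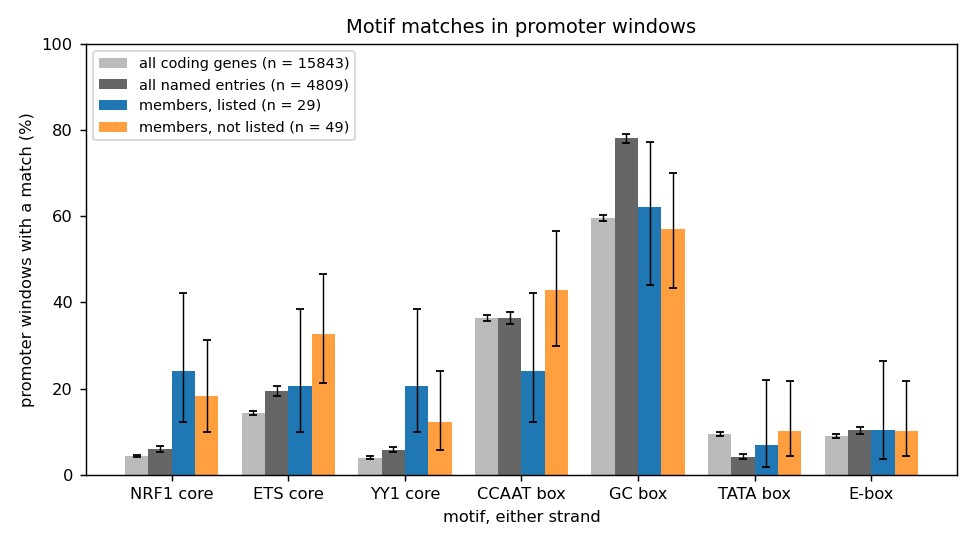
Share of RefSeq promoter windows with a match on either strand (y axis, %) for 7 motifs (x axis) in all protein-coding genes, all named entries, and members in and outside the list. The bars start at 0 and the error bars are 95% Wilson intervals; those of members lie above the named entries for the NRF1 and YY1 cores among the 29 listed members (24.1% and 20.7%).

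Whole upstream stretches are printed for 5 members to show how different these promoters are. Each gives the 100 bases before the listed start, with matches to the motifs above in capitals, except the GC box, which is left in lower case.
ATP5MC1 (chr17:48892717-48892816, plus strand): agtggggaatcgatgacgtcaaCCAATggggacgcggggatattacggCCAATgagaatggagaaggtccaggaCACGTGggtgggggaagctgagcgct
NDUFS7 (chr19:1383800-1383899, plus strand): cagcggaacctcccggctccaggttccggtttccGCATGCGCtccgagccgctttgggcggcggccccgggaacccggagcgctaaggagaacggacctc
NDUFAF4 (chr6:96897864-96897963, minus strand): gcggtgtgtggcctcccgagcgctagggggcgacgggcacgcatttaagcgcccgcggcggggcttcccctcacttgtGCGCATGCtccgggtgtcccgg
COX6B1 (chr19:35648252-35648351, plus strand): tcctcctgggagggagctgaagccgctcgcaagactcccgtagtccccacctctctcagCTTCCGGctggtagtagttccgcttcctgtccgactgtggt
NDUFB2 (chr7:140696608-140696707, plus strand): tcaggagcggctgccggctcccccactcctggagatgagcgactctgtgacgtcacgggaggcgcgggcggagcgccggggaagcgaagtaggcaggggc
ATP5MC1 carries CCAAT at -78 and -52 and CACGTG at -26 from the listed start. COX6B1 has the ETS core at -41. NDUFB2, with the largest pause distance, has none of the 6 capitalised motifs in this stretch. At least 1 was present in 8 of the 29 stretches read (27.6%, 14.7 to 45.7%), against 40.5% of the 4373 read over all entries.

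Other genes of the pathway fall into 5 lists, with 36.8 to 50% of their genes listed and median distances of 33 to 60 bp. The share of all protein-coding genes, 29.1%, lies inside the Wilson interval of each list. That interval was 25.9 to 51.8% for assembly factors and 28 to 72% for electron carriers. No list was thus shown to exceed the share of all protein-coding genes. Intervals of the medians could be wide, with 0 to 215 bp for the citric acid cycle list and 6 to 296 bp for regulators. Sites over 100 bp, counted below, made up 18.7% of all entries. Of 50 assembly factors for complexes I to V outside the naming rule, 19 were listed, with a median distance of 52 bp and 1 site over 100 bp. They ran from COX18 (6 bp) through COX10, which makes the heme of complex IV (52 bp), to COX20 (283 bp). Of 16 genes of electron carriers and ubiquinone synthesis, 8 were listed, with a narrow range from CYCS, the cytochrome c gene (26 bp), to ETFA (64 bp) and a median of 42.5 bp, none of them over 100 bp. Of 17 genes of pyruvate oxidation and the citric acid cycle 8 were listed, with a median of 33 bp and 3 sites over 100 bp, from FH (0 bp) through SUCLG1 (31 bp) and OGDH (35 bp) to PDHB (215 bp).

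Among 19 regulators of mitochondrial gene expression and DNA, 7 were listed, with a median of 37 bp. They ran from GABPB1, a subunit of GABP (6 bp), through PPRC1 (37 bp) to YY1 (296 bp). The gene for NRF1 itself stood at 34 bp and that for TFAM, which packages mitochondrial DNA, at 44 bp. Of 10 genes of nucleotide and phosphate carriers and their partners 5 were listed, from VDAC3 (39 bp) through VDAC1 (60 bp) to SLC25A3, the phosphate carrier (106 bp).

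Ribosomal protein genes, other housekeeping genes of large complexes, gave close values. They too were chosen by symbol alone, so genes of related name may be among them. Of all protein-coding genes 29.1% were listed. The 31 listed genes of the mitochondrial ribosome had a median pause distance of 55 bp (49 to 77) and 40.3% of 77 were listed. The 37 listed genes with symbols of cytosolic ribosomal proteins had a median of 54 bp (43 to 60) and 40.2% of 92 were listed. The intervals of these medians overlap that of the 37 oxidative phosphorylation genes, 39 to 68 bp. No cytosolic ribosomal protein gene had a site under 20 bp, compared with 2 mitochondrial ones (6.45%) and 3 members (8.11%). Over all entries the share was 7.08%, and these counts were not tested against each other.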

How the data were processed

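The authors deposited 2 lists for the whole series, gene intervals and pause sites of 1 bp, as hg38 coordinates with 6481 rows each. The submitters' processing notes name the tools deepTools 3.1.1, Bowtie2 2.2.6 and cutadapt 1.14 and the builds hg38 and mm10, without saying what each was used for. The calling of the sites is not described: not given in the sources used here.

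Since no symbols are in the lists, an entry received the symbol of the only RefSeq gene (GRCh38.p14) whose 3' end lay within 50 bp and which covered at least 50% of it, which named 5822 entries. Lists were joined by Ensembl identifier, and positions are 1-based. Bases came from RefSeq promoter windows. Complexes follow the symbol's prefix. All members may be named, with coordinates for the smallest, middle and largest distance of a complex. From other lists the extremes and the middle are named. The values of 1 member are not reported here individually, though its group's counts include it. Members and lists were chosen with earlier results of these data known. Naming, distances and median intervals were tested on simulated data. Tables were handled in pandas 2.3.3 under Python 3.11.15 (NumPy 2.4.6), intervals computed with SciPy 1.17.1 and plots drawn with matplotlib 3.10.9. Alternatives were RefSeq starts as origin, starts within 10 bp of RefSeq, reciprocal-overlap names, sets without assembly factors or with COXFA4, other neighbour limits and a shorter promoter window.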

Additional observations from a re-analysis of the deposited data

How the results depend on the processing

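Of 75 values under alternative settings, 60 stayed within the 95% interval (for groups under 6 genes, the range) of the original or within 1.5 times its count, and 15 moved. Measured from the outermost RefSeq start, the median distance was 73 bp for all members, 70.5 bp for complex II and 347 bp for the assembly factors, with 0 members under 20 bp, 12 over 100 bp (32.4%) and 7 at 200 bp or more (18.9%). Over all 5822 named entries that median was 84 bp, and the shares were 5.39%, 43.1% and 27.7%. The members' mean, in place of the median, was 70.3 bp. With the listed start within 10 bp of RefSeq's, 14 members were left, of which 0 lay under 20 bp, 7 at 20 to 60 bp (50%), 4 over 100 bp (28.6%) and 1 at 200 bp or more (7.14%), against 4.17%, 57.6%, 16.3% and 4.04% of 2325 entries. The median of the 14 was 66 bp, above the 51 bp of those entries, and the 2 of complex V had 104 bp. Of members long enough and without a close neighbour, 77.8% were listed. In the 150 bases before the RefSeq start, the NRF1 core was found in 3 of 29 members (10.3%, 3.58 to 26.4%, against 4.41% of named entries). The YY1 core was found in 0 (against 1.06%), CCAAT in 4 (13.8%, against 27.7%) and CACGTG in 0 (against 6.55%). Names by RefSeq start were added after seeing the data. No paired analysis was possible because the lists hold no value for any library.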
